A study of Homo sapiens with 3 samples.

Results

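The alpha and beta tubulin isotypes examined here are 10 genes, 4 of alpha tubulin (TUBA1A, TUBA1B, TUBA1C and TUBA4A) and 6 of beta tubulin (TUBB, TUBB2A, TUBB2B, TUBB3, TUBB4B and TUBB6), out of 60504 genes in the deposited table. They were taken by matching the Ensembl identifier of each row to the gene symbol. RNA-Seq had been performed on DLD1, an established colorectal cancer cell line, with 1 library of DLD1 control cells (genotype wild type) and 2 libraries of BEX2-/- DLD1 cells. The knockout had been made with CRISPR/Cas9, and the libraries KO1 and KO2 are here called clone 1 and clone 2. No treatment or time point was given for any library. Whether KO1 and KO2 are separate lines was not given in the sources used here. Each was sequenced once, so differences between clones and effects of the knockout cannot be told apart within a clone. The control has no replicate. The libraries held between 35593990 and 47722373 counted reads, recovered from the steps in the deposited values. BEX2 itself (ENSG00000133134) was listed at 0 in all 3 libraries, where a count of 0 allows up to 0.0538 FPKM in DLD1 control cells, so its mRNA gave no check of the labels. Of 10 epithelial colorectal markers 9 passed a filter on low values. EPCAM was between 219.6 and 282 FPKM in the 3 libraries. The keratins KRT8, KRT18 and KRT19 were at 305 FPKM or more in each library, and all 3 were higher in clone 2 than in clone 1. CEACAM5 was at 0.742 FPKM in the control library, 18.3 in clone 1 and 0.119 in clone 2, and VIL1 at 3.61, 13.2 and 0.221 FPKM, so both were highest in clone 1 and lowest in clone 2.

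Microtubules are hollow polymers of dimers of alpha and beta tubulin, which form the mitotic spindle, the tracks of intracellular transport and the core of cilia. Human cells carry several genes for each subunit, and the proteins they encode, called isotypes, are nearly alike except in an acidic tail at the carboxyl end, where enzymes add or remove glutamate, tyrosine and other groups. TUBB, TUBB4B, TUBA1B and TUBA1C are widely expressed, while TUBB3, TUBB2A, TUBB2B and TUBA1A are best known from neurons. Cells also hold tubulin mRNA in check: when free dimers are plentiful, the factor TTC5 recognizes the first residues of a tubulin chain as it leaves the ribosome and has its mRNA degraded.

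The beginning of the coding sequence is shown first because it encodes the residues that TTC5 recognizes. The first 30 bases are given for each distinct start, from GENCODE release 29 transcripts on GRCh38, with the first 4 codons in capitals.
TUBA1B: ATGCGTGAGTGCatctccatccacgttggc
TUBA4A: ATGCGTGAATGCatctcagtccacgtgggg
TUBB: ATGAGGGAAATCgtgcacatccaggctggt
TUBB4B: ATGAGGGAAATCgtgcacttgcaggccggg
TUBB3: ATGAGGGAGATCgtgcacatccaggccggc
TUBB6: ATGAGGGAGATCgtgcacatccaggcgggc
TUBB2A: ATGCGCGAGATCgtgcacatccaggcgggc
TUBB2B: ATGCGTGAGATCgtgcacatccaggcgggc
TUBA1A and TUBA1C open with the same 30 bases as TUBA1B, and TUBB4B shares its 12 capital bases with TUBB. Among 19497 coding genes, ATGCGTGAGTGC opened the coding sequence of 3, which were TUBA1A, TUBA1B and TUBA1C (0.0154%). ATGAGGGAAATC also opened 3, namely TUBB, TUBB4B and the tubulin gene TUBB8P12. When synonymous codons were allowed, all 4 alpha isotypes and 5 other genes, every one an alpha tubulin, shared the alpha start. All 6 beta isotypes and 4 other genes, every one a beta tubulin, shared the beta start. The search covered the sense strand of the first 12 coding bases alone.

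The end of the coding sequence is shown for the beta isotypes because it encodes the tail by which they differ. The last 60 bases, stop codon included, are given with the in-frame codons GAA and GAG, which the genetic code reads as glutamate, in capitals.
TUBB: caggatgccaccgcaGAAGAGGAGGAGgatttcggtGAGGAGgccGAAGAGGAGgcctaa
TUBB4B: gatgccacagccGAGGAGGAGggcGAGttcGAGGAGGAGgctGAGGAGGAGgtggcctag
TUBB6: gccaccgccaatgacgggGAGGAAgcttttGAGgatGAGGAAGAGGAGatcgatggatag
TUBB2A: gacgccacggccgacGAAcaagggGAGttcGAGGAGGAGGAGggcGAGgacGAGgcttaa
TUBB2B: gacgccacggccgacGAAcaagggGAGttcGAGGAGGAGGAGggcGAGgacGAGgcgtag
TUBB3: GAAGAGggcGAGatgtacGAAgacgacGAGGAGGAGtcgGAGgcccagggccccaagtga
The beta ends held between 7 and 10 capital codons, with 10 in TUBB4B, 9 in TUBB, 8 in TUBB2A, TUBB2B and TUBB3, and 7 in TUBB6.

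The likeness of these genes bears on how reads can be assigned to them. Coding sequences were 84.4% to 97.2% identical among alpha isotypes and 80.9% to 98.1% among beta isotypes. The closest pair was TUBB2A and TUBB2B, followed by TUBA1A and TUBA1B. Of the stretches of 100 coding bases in TUBB2A, 68.0% also occurred in a transcript of another gene at another locus or another listed isotype, and 71.7% of those in TUBB2B did. The share was 45.2% for TUBA1B, 26.7% for TUBA1C and 26.4% for TUBA1A. It was 10.6% for TUBB, whose copies were in the pseudogene TUBBP1, 6.86% for TUBB3 and 3.55% for TUBB4B. TUBA4A and TUBB6 had none of this length. The read length and the handling of reads with several matches were not given in the sources used here. Values of TUBA1A, TUBA1B, TUBA1C, TUBB, TUBB2A, TUBB2B and TUBB3 are therefore uncertain where reads could be split. The same holds for TUBB4B over a smaller share of its sequence. TUBB3 shares 41 stretches of 100 coding bases with TUBB4B, which had 58205 reads in the control library against 152 for TUBB3.

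The genes lie on 6 chromosomes by the GENCODE annotation of GRCh38. TUBA1B (chromosome 12, 49127782 to 49131397) and TUBA1A (49184796 to 49189324) are on the minus strand, TUBA1B with 1309 nt of exon overlap to the antisense gene AC011603.2, and TUBA1C (49188736 to 49274603) is on the plus strand, where 490 nt of its exons overlap those of TUBA1A. TUBA4A is on chromosome 2 from 219249711 to 219278170, and 627 nt of its exons overlap STK16 on the opposite strand. TUBB is on chromosome 6 from 30720201 to 30725426, apart from TUBB2A (3153669 to 3157526) and TUBB2B (3224261 to 3231730) on the same chromosome. Exons of TUBB overlap the antisense gene AL662797.1 over 538 nt. Exons of TUBB2B overlap PSMG4 on the opposite strand over 174 nt, and PSMG4, at 1.36 to 1.53 FPKM, was above TUBB2B in every library. TUBB3 is on chromosome 16 from 89921392 to 89938761, and 1584 nt of its exons are shared with AC092143.1 on the same strand, which was listed at 0 in all 3 libraries. TUBB4B is on chromosome 9 from 137241213 to 137243707. TUBB6 is on chromosome 18 from 12307669 to 12344320, and 837 nt of its exons overlap AFG3L2 on the opposite strand. Whether strand was used in counting was not given in the sources used here, so reads from such overlaps cannot be told apart.

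The levels are given as FPKM, the fragments of a gene divided by its exon length and by the depth of the library. All 10 isotypes were detected in every library. The order of their levels was the same in all 3 libraries, from TUBB4B through TUBB, TUBA1B, TUBA1C, TUBA4A, TUBB6, TUBB2A, TUBA1A and TUBB3 to TUBB2B. No neighbours in this order overlapped in their range over the 3 libraries. By ratio, the closest neighbours were TUBA4A, at 30.7 FPKM or more, and TUBB6, at 30.6 FPKM or less. The order was also the same in all 3 libraries when reads were divided by the length of the principal transcript instead.

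**Figure D1:**
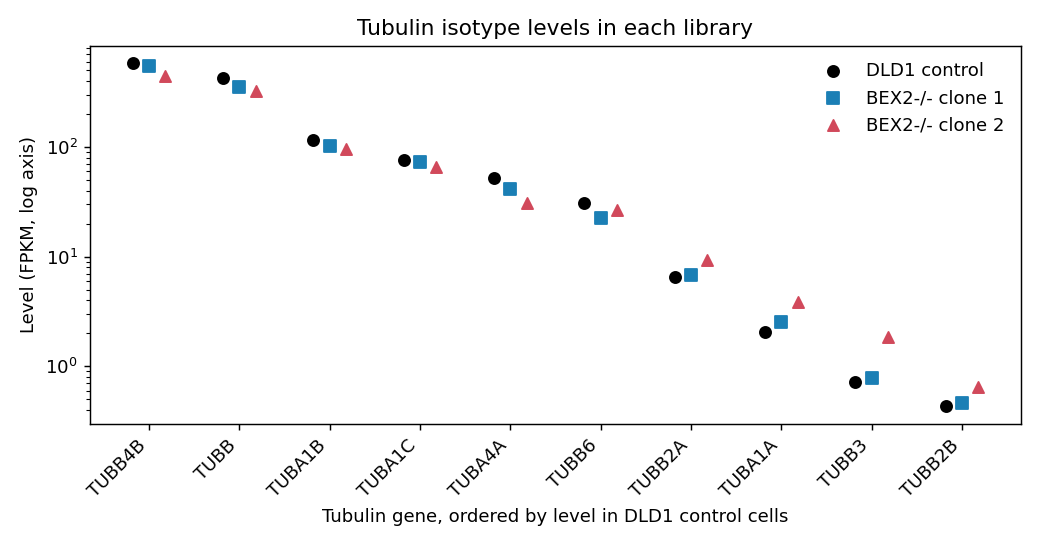
Level of each tubulin gene in FPKM on a log axis, with 1 point per library (DLD1 control cells, clone 1 and clone 2) and genes ordered by the control level. The 6 most abundant genes had their highest value in the control library, and the 4 least abundant had their highest value in clone 2.

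The most abundant beta isotypes came first. TUBB4B (ENSG00000188229), a beta isotype found in most tissues and abundant in cilia, was at 581 FPKM in DLD1 control cells, with 543 in clone 1 and 448 in clone 2. TUBB (ENSG00000196230), the main beta tubulin of dividing cells, was at 424 FPKM in DLD1 control cells, with 353 in clone 1 and 325 in clone 2. Both genes were thus lower in both clones, with clone 2 the lowest. The ratio to the control was 0.935 in clone 1 (95% counting interval 0.923 to 0.947) and 0.771 in clone 2 (0.761 to 0.780) for TUBB4B. For TUBB it was 0.832 in clone 1 (0.821 to 0.842) and 0.767 in clone 2 (0.758 to 0.776). TUBB rested on 67647 reads in DLD1 control cells, and intervals from reads cover counting error only, not the spread between cultures. TUBB6 (ENSG00000176014), a more divergent beta isotype, was at 30.6 FPKM in DLD1 control cells, with 22.7 in clone 1 and 26.8 in clone 2. Unlike the other abundant isotypes it was lowest in clone 1, with ratios of 0.742 (0.711 to 0.774) in clone 1 and 0.877 (0.845 to 0.910) in clone 2.

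Among the alpha isotypes, TUBA1B (ENSG00000123416), the main alpha tubulin of most cells, was at 115 FPKM in DLD1 control cells, with 103 in clone 1 and 96.2 in clone 2. TUBA1C (ENSG00000167553), its widely expressed neighbour, was at 75.6, 73.4 and 65.5 FPKM in the same order. The clones lay below the control for both genes, although TUBA1C in clone 1 was at 0.972 of the control in FPKM and at 1.01 of it after scaling to TPM, where its direction turned. TUBA4A (ENSG00000127824), an alpha isotype abundant in platelets, was at 52.2 FPKM in DLD1 control cells, with 41.4 in clone 1 and 30.7 in clone 2. Its ratios of 0.794 (0.769 to 0.820) and 0.589 (0.570 to 0.608) were the lowest of the alpha genes in each clone. On the log2(FPKM + 1) scale, only 1.84% of the 11675 genes past the filter had a lower ratio in clone 2 than TUBA4A, and 9.0% had one in clone 1.

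The 4 isotypes best known from neurons were scarce, and each was at its highest in clone 2. TUBA1A (ENSG00000167552) was at 2.07 FPKM in DLD1 control cells, with 2.51 in clone 1 and 3.85 in clone 2, from 336, 306 and 629 reads. TUBB2A (ENSG00000137267) was at 6.53, 6.83 and 9.35 FPKM, from 535, 420 and 771 reads. Clone 1 lay close to the control for TUBB2A, where its ratio of 1.05 had a counting interval of 0.919 to 1.19, and clone 2 stood at 1.43 (1.28 to 1.60). TUBA1A had a ratio of 1.21 in clone 1 (1.04 to 1.42) and 1.86 in clone 2 (1.63 to 2.13). TUBB3 (ENSG00000258947), widely used as a marker of neurons, was at 0.723 FPKM in DLD1 control cells, with 0.786 in clone 1 and 1.85 in clone 2, from 152, 124 and 392 reads. TUBB3 in clone 2 was 2.56-fold the control value (2.12 to 3.11), against 1.09-fold in clone 1 (0.851 to 1.39). TUBB2B (ENSG00000137285), the near copy of TUBB2A, was at 0.432, 0.461 and 0.649 FPKM, from 45, 36 and 68 reads. A difference of TUBB2B between clone 1 and the control was not detectable at this depth (ratio 1.07, interval 0.669 to 1.69), and in clone 2 its ratio was 1.5 (1.02 to 2.24). Set side by side, clone 2 was 2.36-fold clone 1 for TUBB3 (1.92 to 2.91) and 1.53-fold for TUBA1A (1.34 to 1.76).

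**Figure D2:**
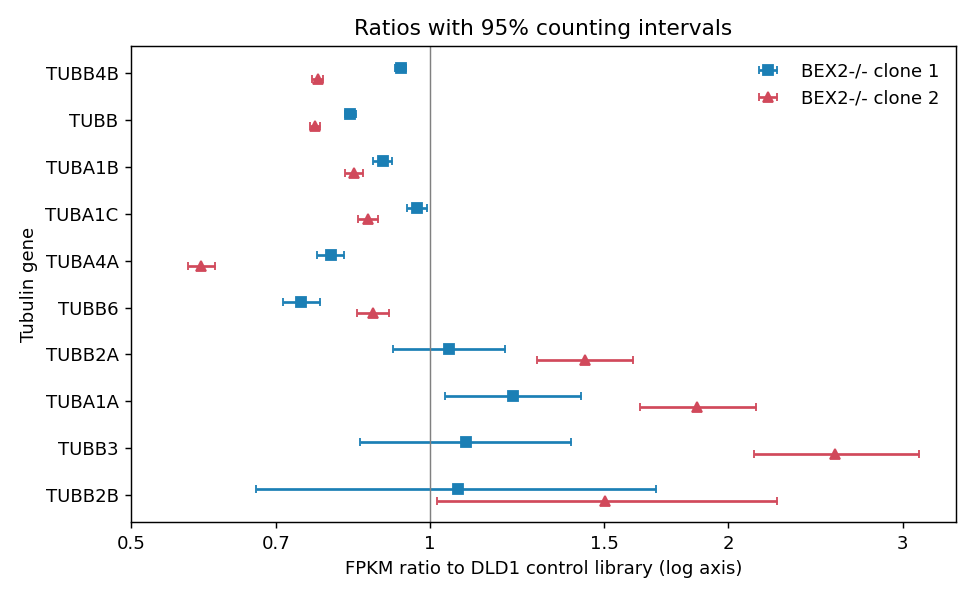
Ratio of FPKM in each clone to the DLD1 control library for each tubulin gene on a log axis, with bars for 95% counting intervals. All 6 abundant genes lie below 1 in both clones, and TUBB3 in clone 2, at 2.56, is the farthest above 1.

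Markers of other cell types were set beside the isotypes known from neurons. None of 10 neuronal markers passed the filter on low values, and 4 of them (NEFL, NEFM, STMN2 and DCX) were at 0 in all 3 libraries. Their summed level was 1.27 FPKM in DLD1 control cells, with 0.852 in clone 1 and 1.87 in clone 2. MAP2, a neuronal microtubule-associated protein, was at 0.70, 0.331 and 1.44 FPKM, and thus highest in clone 2, where it made up most of the summed level. SYP, a synaptic vesicle protein, was at 0.485, 0.436 and 0.338 FPKM, and RBFOX3, a neuronal splicing factor, at 0.0576, 0.0768 and 0.0446 FPKM, both lowest in clone 2. These 3 markers were named after their values were seen. None of 10 mesenchymal markers or 8 immune markers passed the filter either, and their sums lay between 0.882 and 1.37 FPKM over all libraries. The part of these markers in the higher TUBB3 of clone 2 was not tested.

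The question put to the whole set was whether the knockout clones differed from DLD1 control cells beyond the spread between the clones. Genes were kept when the control value and the clones' mean averaged 1 FPKM or more, and this left 11675. Of the 10 isotypes 9 passed. TUBB2B did not, and TUBB3 passed only through its value in clone 2. limma was applied to log2(FPKM + 1) over all these genes, with the control assumed to vary as the 2 clones do. The spread of each gene between the clones was moderated toward that of genes at a similar level. At a Benjamini-Hochberg adjusted p-value under 0.05 limma called 0 genes (0%), and 139 (1.19%) had an unadjusted p-value under 0.05. No other tool was run. None of the 9 isotypes was among the 139, and every one had an adjusted p-value of 1.00 by limma. TUBA4A had the lowest unadjusted value (0.114, limma), with a mean log2 ratio of -0.54 and a standard error of 0.26. By this test no isotype was called. Its standard errors draw on other genes too, so they are not each isotype's own spread between the clones. For TUBB the log2 ratios were -0.27 in clone 1 and -0.38 in clone 2, with a standard error of 0.17. A change of the size seen for TUBA4A could have been missed with 3 libraries.

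By size alone, 0 of the 9 isotypes were 2-fold higher in both clones or 2-fold lower in both in ratios of FPKM + 1, where 0.325% of all genes were (0.12% higher and 0.206% lower). In numbers, 14 genes were higher and 24 lower, and with TPM scaling 34 were higher and 38 lower. None reached 2-fold in clone 1 or in clone 2 taken singly, against 2.02% and 2.06% of all genes. Without the pseudocount, 4.8% of all genes passed 2-fold in clone 2 (2.73% higher), and TUBB3 was the only isotype to do so. Its place among the 9 came through that same clone 2 value, so it cannot be weighed against this share. By direction, 6 of the 9 were lower in both clones, against 27.7% of all genes, although TUBA1C in clone 1 was above the control with TPM scaling. TUBA1A and TUBB2A were higher in both clones, where 32.4% of all genes were. TUBB3 was also higher in both but is not counted, because it passed the filter only through clone 2. The median log2 ratio over the 9 isotypes, TUBB3 included, was -0.10 for clone 1 and -0.20 for clone 2, whereas the medians over all genes were 0.04 and -0.01. Over all 10 isotypes, without the filter, the median of the mean log2 ratios was -0.16. Between the clones, 5 of the 9 were lower in clone 2 than in clone 1, against 57.8% of all genes, and 4 were higher, against 42.2%. TUBB3 is among these 4, but its direction was favoured by the filter, which it passed only through clone 2. None of the 9 differed 2-fold between the clones in ratios of FPKM + 1, against 4.19% of all genes, while TUBB3 was 2.36-fold higher in clone 2 in FPKM itself.

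**Figure D3:**
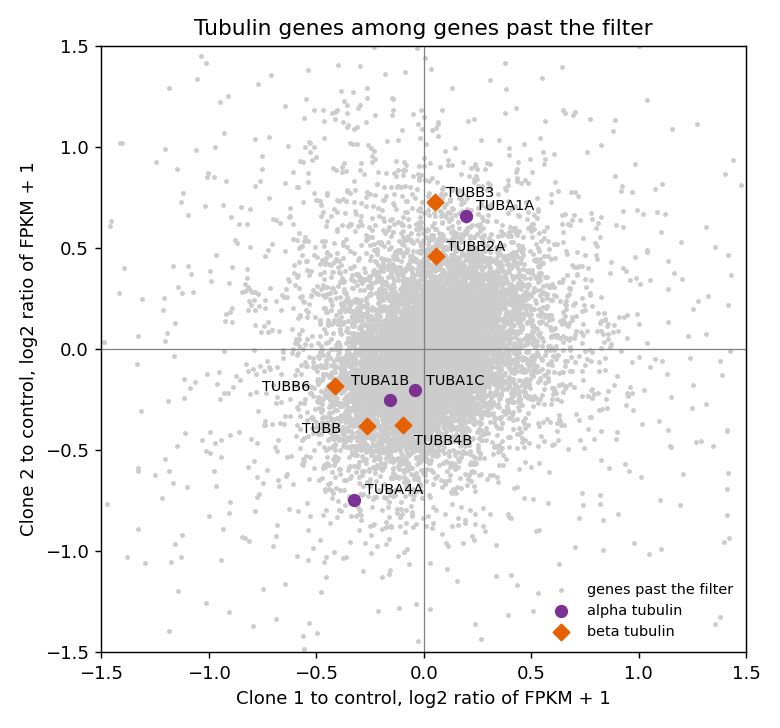
Log2 ratio of FPKM + 1 to the DLD1 control library in clone 1 (x axis) and clone 2 (y axis) for the 9 tubulin isotypes past the filter, over all other genes past the filter in grey, of which 127 lie outside the window. The abundant isotypes sit in the lower left, with TUBA4A lowest, and TUBB3, TUBA1A and TUBB2A sit above 0 in clone 2.

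Levels were then summed for each subunit. The alpha total was 244 FPKM in DLD1 control cells, with 220.2 in clone 1 and 196 in clone 2. The beta total was 1044 FPKM in DLD1 control cells, with 927 in clone 1 and 812 in clone 2. Both totals were thus lower in the clones and lowest in clone 2, where alpha was at 0.803 and beta at 0.778 of the control. Averaged over the clones, the log2 ratio was -0.23 ± 0.12 (SD, n = 2) for alpha and -0.27 ± 0.13 (SD, n = 2) for beta. With TPM scaling these means were closer to the control, at -0.17 for alpha and -0.20 for beta. The totals differed from the control by similar amounts, and the ratio of beta to alpha was 4.27 in DLD1 control cells, with 4.21 in clone 1 and 4.14 in clone 2. This ratio depends on the exon length used: with the length of the principal transcript it was 2.88, 2.84 and 2.80.

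Shares of each total are free of any scaling between libraries. In the alpha total, TUBA1B held 46.9% in DLD1 control cells, with 46.7% in clone 1 and 49.0% in clone 2. TUBA1C held 30.9%, 33.3% and 33.4%, and TUBA1A 0.847%, 1.14% and 1.96%. The share of TUBA4A was 21.3% in DLD1 control cells, with 18.8% in clone 1 and 15.6% in clone 2. The clones' mean for TUBA4A, 17.2% ± 2.24 (SD, n = 2), lay more than 1 SD below the control, and the clones' means of TUBA1A and TUBA1C lay more than 1 SD above it. That of TUBA1B did not. An SD from 2 clones beside 1 control library is a loose scale. These gaps were not tested and do not sort the isotypes into changed and unchanged.

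In the beta total, TUBB4B held 55.7% in DLD1 control cells, with 58.6% in clone 1 and 55.2% in clone 2. TUBB held 40.7%, 38.1% and 40.1%, and TUBB6 held 2.93%, 2.45% and 3.30%. For TUBB4B and TUBB6 the control share lay between those of the clones, and for TUBB the clones' mean of 39.1% ± 1.42 (SD, n = 2) was just over 1 SD below it. The scarce beta isotypes added little: TUBB2A 0.625%, 0.737% and 1.15%, TUBB3 0.0693%, 0.0849% and 0.228%, and TUBB2B 0.0414%, 0.0497% and 0.0800%. For TUBB2A and TUBB2B the clones' mean lay more than 1 SD above the control, and for TUBB3 it did not. The gaps in the beta total, too, rest on 2 clones and 1 control library and were not tested. Over both subunits, the 6 isotypes above 20 FPKM in every library made up 99.2% of the total in DLD1 control cells, with 99.1% in clone 1 and 98.4% in clone 2. The other 4, under 10 FPKM in every library, made up 0.757%, 0.924% and 1.56%. This split by level was made after the values were seen.

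**Figure D4:**
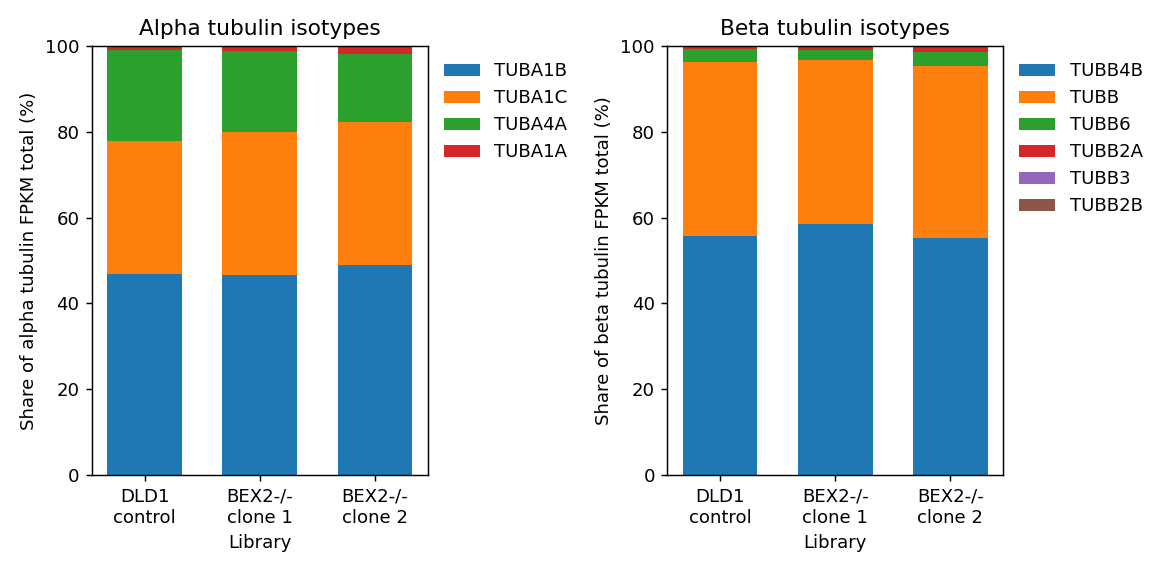
Share of each isotype in the alpha tubulin total (left) and the beta tubulin total (right) of FPKM in each library, as stacked bars from 0 to 100%. TUBA4A takes 21.3% of the alpha total in DLD1 control cells and 15.6% in clone 2, while TUBB4B and TUBB together fill most of the beta total in all 3 libraries.

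The remaining alpha and beta genes of a list of 8 were near or at 0. None passed the filter, TUBA3C and TUBA3E were listed at 0 in every library, and the 8 summed to 0.680 FPKM in DLD1 control cells, with 0.953 in clone 1 and 0.533 in clone 2. TUBA3D, an alpha isotype best known from testis, had 11, 29 and 27 reads. Of processed copies and pseudogenes, TUBBP2 reached 4.51, 4.78 and 3.31 FPKM and TUBBP1, the copy that shares stretches with TUBB, reached 2.16, 1.28 and 1.03 FPKM. These pseudogenes were named after their values were seen.

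Genes that make, fold, modify or bind tubulin were taken from 6 lists of 69 measured genes, of which 64 passed the filter. By limma 0 of these 64 passed an adjusted p-value of 0.05, and 0 changed 2-fold in either clone in ratios of FPKM + 1. In both clones 21 were lower and 24 higher, where 27.7% of all genes were lower in both and 32.4% higher in both. The counts by direction in each list below are to be read beside these shares. They were made in FPKM as deposited. The median log2 ratio of the 64 was 0.03 in clone 1 and -0.02 in clone 2, near the medians of all genes. The gene with the highest and the one with the lowest mean log2 ratio over the clones are given for each list.

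Folding of new tubulin chains requires the CCT chaperonin and prefoldin. Of 14 such genes, 9 were lower in both clones and 0 higher in both, against 27.7% and 32.4% of all genes. These counts were not made with TPM scaling. They can change with it, since median log2 ratios were only -0.06 (clone 1) and -0.08 (clone 2) for these 14 genes. CCT7, a chaperonin subunit, was the lowest of them, with 204 FPKM in DLD1 control cells, with 172 in clone 1 and 177 in clone 2, and CCT6A was the highest, with 107, 105 and 117 FPKM. Of 6 genes on the folding cofactor list, 3 were lower in both clones and 2 higher. They ranged from ARL2, a small GTPase of the cofactor complex, with a mean log2 ratio of -0.26, to TBCEL at 0.17.

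For autoregulation, TTC5 was at 1.31, 1.36 and 1.40 FPKM, so that its log2 ratios were 0.03 and 0.06. CNOT1, the scaffold of the CCR4-NOT deadenylase that removes the tails of mRNA, was at 10.7 FPKM in DLD1 control cells, with 14.7 in clone 1 and 13.9 in clone 2. CNOT7, one of its catalytic subunits, was at 10.5, 6.73 and 9.52 FPKM. Of the 4 genes of this list, 3 were higher in both clones and CNOT7 was lower in both.

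Among 12 modifying enzymes past the filter, 7 were higher in both clones and 2 lower. TTLL3, a glycylase, was at 1.46 FPKM in DLD1 control cells, with 2.58 in clone 1 and 2.66 in clone 2, with a mean log2 ratio of 0.55. AGBL5, a carboxypeptidase that removes glutamate from tubulin, was the lowest, at 6.67, 5.47 and 4.83 FPKM. TTL, the ligase that restores the final tyrosine of alpha tubulin, was at 3.46, 3.31 and 3.95 FPKM.

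Of 19 microtubule-associated genes, 9 were higher in both clones and 4 lower. MAP4, which stabilizes microtubules in non-neuronal cells, was at 16.8, 20.1 and 23.1 FPKM. STMN3, of the stathmin family that sequesters dimers, was at 4.24, 2.66 and 3.60 FPKM, with a mean log2 ratio of -0.35. Among the other tubulins and the gamma ring complex, which nucleates microtubules, 2 of 9 were lower in both clones and 3 higher. TUBG2, a gamma tubulin, was at 7.38, 8.82 and 10.7 FPKM, and TUBGCP5 of the ring complex at 2.54, 2.62 and 1.56 FPKM.

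Proliferation genes were set beside the isotypes. Of 17 such genes 12 were lower in both clones and 0 higher in both, against 27.7% and 32.4% of all genes. Their median log2 ratio was -0.06 in clone 1 and -0.43 in clone 2. With clone 1 ratios this small, the count of genes lower in both clones can shrink with TPM scaling, and it was not made with it. The 17 genes summed to 995 FPKM in DLD1 control cells, with 926 in clone 1 and 699 in clone 2, and so stood in the same order as the alpha and beta totals. BIRC5, which acts at mitosis, was the lowest at 43.2, 35.5 and 21.7 FPKM, and MKI67 the highest at 32.3, 38.2 and 25.2 FPKM. Their part in the lower tubulin totals was not tested. By limma 0 of the 17 passed the threshold.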

How the data were processed

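RNA-Seq libraries had been prepared by the authors from total RNA with an Illumina TruSeq kit and run on an Illumina HiSeq instrument. The deposited table gives FPKM per Ensembl gene for 3 libraries, 1 of control cells and 2 of BEX2-/- cells. The submitters' processing notes name Trim Galore 0.3.7, STAR 2.5, Cufflinks 2.2.1, DESeq 1.22.1 and hg19, without their roles, and the annotation was not given in the sources used here. Symbols matched 56558 of 60504 identifiers. GENCODE release 29, on GRCh38, gave positions, sequences and merged exon lengths. FPKM times exon length gave whole reads at depths of 47458850 (control), 35593990 (clone 1) and 47722373 (clone 2), within 0.02 of a whole number for 30 of 30 isotype values. For all genes, 92.9% to 93.1% of values under 1000 reads were whole.

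Tests, the 2-fold rule and log2 ratios of genes used log2(FPKM + 1). Ratios with counting intervals, totals and shares used FPKM without a pseudocount. limma 3.58.1 (R 4.3.3, mean-variance trend) was fitted over genes with a mean of at least 1 FPKM. Its p-values rest on the spread between 2 clones, moderated over all genes, and on no spread between control cultures. Count models were not run, since the table is in FPKM and not all values came out as whole reads. Intervals for ratios of reads were exact binomial, at 95%. Principal transcripts were those marked by APPRIS. Python 3.11.15, pandas 2.3.3, scipy 1.17.1 and Biopython 1.88 were used. The limma step was run on simulated data with large changes, which does not show whether it could find changes of the size seen here. All isotypes are named, and of the other lists the genes with the highest and lowest mean log2 ratio past the filter. EPCAM, the keratins, TTC5, TTL, MAP2, SYP and RBFOX3 are named beyond this rule, chosen with values seen. Genes most alike in pattern were to be named for isotypes past 2-fold in a clone in FPKM + 1, and none was. The isotypes and gene lists were chosen with earlier results of these data known. The coding ends of the alpha isotypes are not reported here. TBCE of the 143 list genes was not matched by symbol. The alternatives are given with the observations.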

Additional observations from a re-analysis of the deposited data

How the results depend on the processing

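The depth behind TUBB2B and TUBB3, at most 68 and 392 reads in a library, limits what their ratios show, and a single control library leaves the variation of DLD1 control cells unmeasured. Under a pseudocount of 0.1 FPKM, no filter, a mean of at least 5 FPKM, both scalings, a 1.5-fold threshold and the omission of either clone, 0 isotypes were called in both clones (or in the remaining clone). limma called 0 genes under each of its 6 alternatives, and its fit without a clone was not run because no spread remained. No paired analysis was possible because the control has 1 library and shares no second replicate number with the clones. Over all genes, the number changed 2-fold in both clones moved from 38 (14 higher, 24 lower) to 88 with a pseudocount of 0.1 FPKM, 6 at a mean of at least 5 FPKM, 72 with TPM scaling (34 higher, 38 lower), 137 at 1.5-fold, and 236 to 241 with 1 clone left out. The median log2 ratio of the isotypes, -0.20, was -0.20 without clone 1 and -0.0973 without clone 2. Shares depend on the length by which reads are divided. Without division, the clones' mean share was 42.7% for TUBA1B, 49.4% for TUBB and 45.2% for TUBB4B, and TUBB then exceeded TUBB4B. With the length of the principal transcript, an alternative chosen after the data were seen, the clones' mean was 54.8% for TUBA1B, 26.8% for TUBA1C (33.3% as reported), 4.42% for TUBB6 (2.88%) and 0.302% for TUBB3 (0.157%). The share of TUBA4A stayed within 1 SD of its value under each alternative total or length. Omission of a clone could not fail this rule, because each of 2 clones always lies within 1 SD of their mean. The 70 alternative log2 ratios of single isotypes kept the direction of the mean, and those fitted with limma stayed above its threshold. Many of the 70 could not turn. The filter and the limma trend do not enter a ratio. Each isotype past the filter also had the same direction in both clones, so leaving out either clone could not reverse it.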
